A study of Danio rerio with 4 samples.

Results

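The skin of 30-month-old male zebrafish was compared with that of 24-month-old males, by sequencing of RNA. The comparison sets 1 library of 30 months against 2 libraries of 24 months (replicates 1 and 2). The series holds 4 libraries, and the fourth, of 5 months, is given beside the values as a reference. All fish were male, the tissue was labelled skin in every case, and libraries were made from total RNA with an Illumina kit for mRNA. The fish of 30 months, like those of 5 months, are labelled as the strain AB JxTu, whereas both 24-month libraries come from AB JxTu Tg(wt1b:GFP), a reporter line in which sequence of the wt1b gene drives green fluorescent protein. In every value below, an effect of the reporter line cannot be told apart from one of its age. Whether each library stands for a single fish or for several is not in the labels, and the age of 30 months has no replicate. Of the 32105 genes in the table of read counts, 12883 had a mean of at least 5 CPM (reads of a gene relative to the size of its library, with TMM scaling between libraries) over the 3 libraries, and these genes are described. A gene was counted only when the 30-month library lay 2-fold or more above the higher, or 2-fold or more below the lower, of the 24-month libraries. With 1 library on one side this rule carries no error rate.

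Skin of bony fish holds a living, multilayered epidermis of keratinocytes with mucous cells and ionocytes among them, a dermis of collagen with pigment cells and scales, and below it the muscle of the body wall. The epidermis renews itself by division of basal cells, which rest on a basement membrane through hemidesmosomes. In RNA from bulk tissue fewer cells of a type and less RNA per cell cannot be told apart.

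The libraries held 20070292 and 11833498 counts at 24 months, 20441260 at 30 months and 18211821 at 5 months, and 3 counts at 30 months correspond to 0.157 CPM. The keratin gene krt5, a marker of basal and intermediate epidermis, stood at 26286 and 49215 CPM at 24 months, at 28636 CPM at 30 months and at 21069 CPM at 5 months, so the label of skin held in every library. None of the 11 epidermal keratin genes lay 2-fold outside the pair. Of a wider list of 18 skin marker genes, 3 lay 2-fold below the pair (16.7%, beside 4.84% over all genes) and 0 above. These were DSP (ENSDARG00000022309), PPL and COL10A1 (ENSDARG00000054753). Other genes of the same symbols, DSP (ENSDARG00000076673) and COL10A1 (ENSDARG00000101535), lay inside the pair. The list took 5.02% and 11.4% of the counts at 24 months, 4.33% at 30 months and 8.55% at 5 months. Markers of other tissues were also present, unevenly: genes of striated muscle took 5.65% and 2.91% of the counts at 24 months, 8.70% at 30 months and 10.5% at 5 months, and germ cell genes took 0.220%, 0.00908%, 0.0149% and 0.251% in the same order. Replicate 2 of 24 months lay 2-fold or more from replicate 1 at 5114 of the 12883 genes.

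At 30 months 1002 genes stood 2-fold or more above both 24-month libraries (7.78% of those described) and 624 stood 2-fold or more below both (4.84%), 12.6% together. The distance was at least 4-fold for 207 genes above and 95 below, and at least 8-fold for 41 and 26. The genes above took 11.8% and 4.58% of the counts at 24 months and 27.2% at 30 months, so a small set of abundant transcripts held a large part of the 30-month library. The genes below took 5.20% and 6.60% at 24 months and 1.405% at 30 months. With library totals alone in place of TMM scaling, 765 genes stood above and 797 below, so which direction was the more frequent depends on the scaling. The same holds for the floor, which some genes passed only through the 30-month library: with the mean of 5 CPM taken over the 24-month pair alone, 706 stood above and 714 below. The range also matters: with the 5-month library added to the pair, 538 genes stood 2-fold above and 411 below all 3 other libraries.

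**Figure D1:**
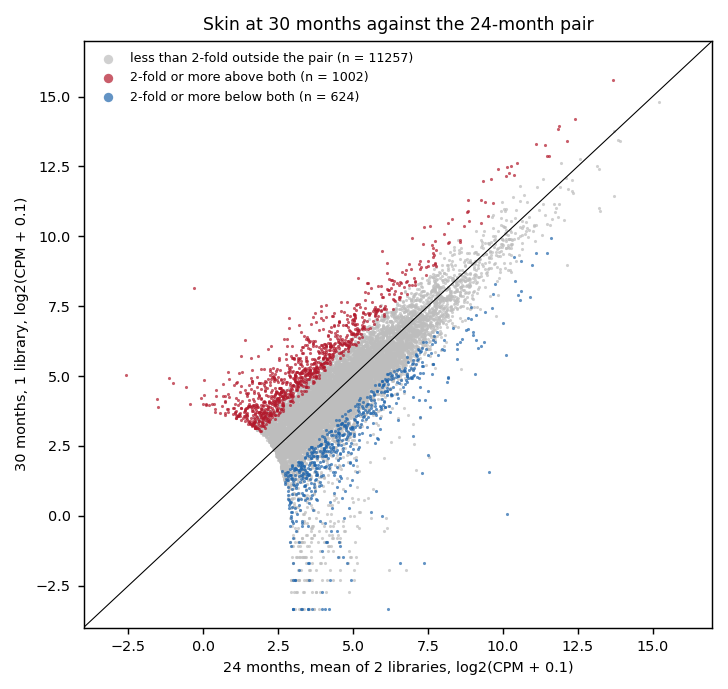
Each point is 1 of the 12883 genes, with the mean CPM of the 24-month libraries on the x axis and the CPM of the 30-month library on the y axis, both as log2(CPM + 0.1). Red points are the 1002 genes 2-fold or more above both 24-month libraries, blue points the 624 genes 2-fold or more below both, and the line marks equal levels.

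The counted genes were spread over genes with close and with distant 24-month values. Where the pair differed by less than 0.5 on the log2 scale (4215 genes), 416 stood above (9.87%) and 251 below (5.95%). Where the pair differed by 2 or more (1494 genes), 143 stood above and 74 below. At the limit of 2-fold, fabp4a (70.7 and 59.7 CPM at 24 months, 142 CPM at 30 months) was still counted and STARD7 (52.9 and 55.01 CPM, then 110 CPM) was not.

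A test across genes called far fewer. edgeR's quasi-likelihood test with Benjamini-Hochberg adjustment at 0.05, over 21535 genes, called 28 genes higher (0.13%) and 119 lower (0.553%) at 30 months, and 1024 genes had an unadjusted p under 0.05. Only the 24-month pair gives residual spread in this fit (1 degree of freedom), and the lone 30-month library is assumed to vary like that pair. Each SE below was worked back from the fitted difference and the test statistic, so it is no separate estimate of a gene's spread. All 28 genes called higher also stood 2-fold above the pair, but only 32 of the 119 called lower stood 2-fold below it, and 83 were at or under 1 CPM in replicate 2. With library totals alone edgeR called 1 higher and 1 lower, so no single call is firm.

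Gene lists drawn up for this tissue differed widely in how many of their members stood outside the pair. The highest shares above were those of the mitochondrially encoded transcripts and of the 4 lists of striated muscle, followed by hox genes, nuclear genes of oxidative phosphorylation, fatty acid oxidation and genes of muscle atrophy and kelch proteins. The highest shares below were those of sterol synthesis and uptake, the cell cycle and the motile cilium. Of 82 cytosolic ribosomal protein genes, 11 keratin genes, 9 melanophore genes and 37 genes of p53 and arrest, 0 stood 2-fold outside the pair in either direction.

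**Figure D2:**
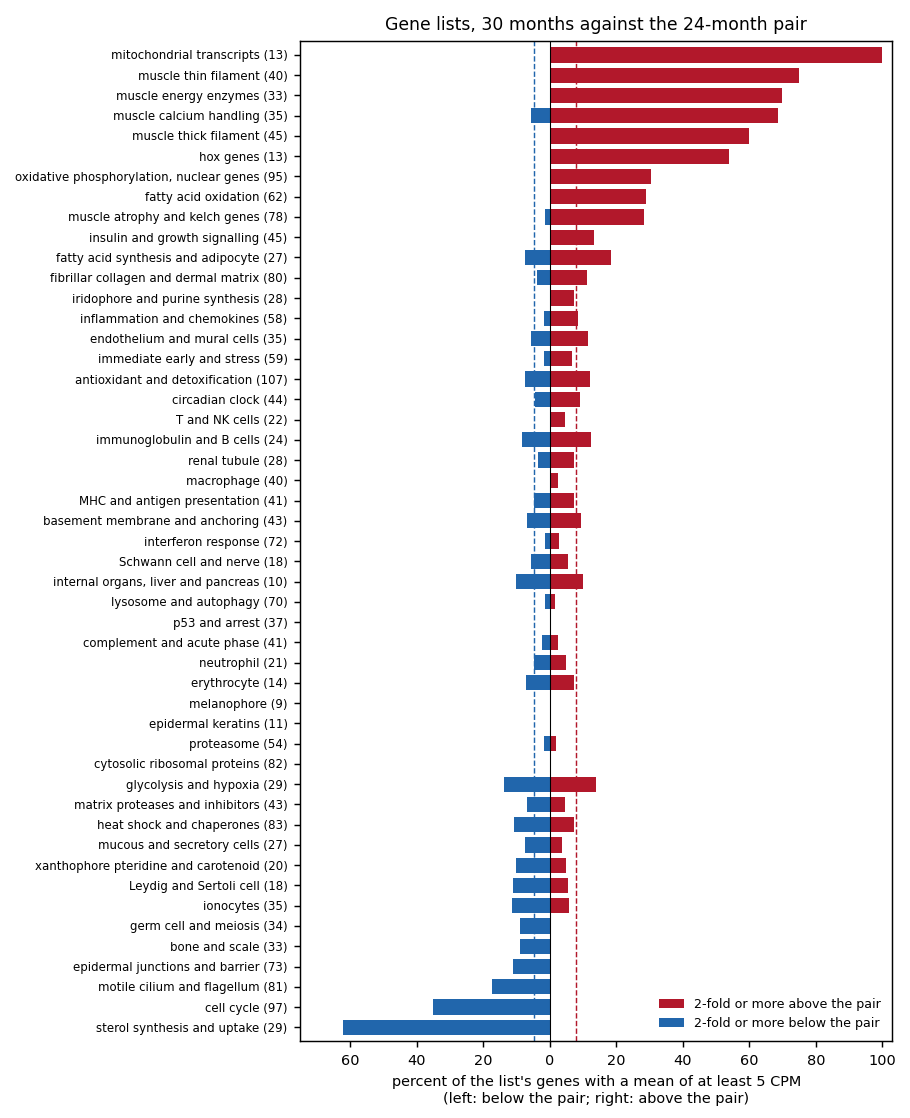
Bars give, for each gene list, the percent of its genes above the floor of 5 CPM (their number in brackets) that stood 2-fold or more above (red, right) or below (blue, left) both 24-month libraries at 30 months. Dashed lines mark the shares over all 12883 genes, 7.78% above and 4.84% below, and sterol genes stand at the bottom with 62.1% below and none above.

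Genes of sterol synthesis formed the most one-sided group on the lower side. Cells make cholesterol from acetyl-CoA through the mevalonate pathway, and the enzymes of that pathway are known to be regulated together by the SREBP transcription factors. Of 29 genes of sterol synthesis and uptake, 18 stood 2-fold or more below both 24-month libraries (62.1%, beside 4.84% over all genes). None stood above. The median difference from the mean of the pair was −2.19 on the log2 scale, with −1.63 against replicate 1 and −2.84 against replicate 2, beside −0.06, 0.06 and −0.12 over all 12883 genes. All 18 also stood 2-fold or more below the 5-month library, the lone library of the same strain as that of 30 months. The list took 0.617% and 1.21% of the counts at 24 months, 1.24% at 5 months and 0.257% at 30 months. By roles, a grouping drawn up after the values were seen, 17 of 20 genes for enzymes of the pathway stood below, but only 1 of 9 genes for uptake, transport and control. None of the 29 passed edgeR's test after adjustment.

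Early steps of the pathway were among those below. HMGCS1, the synthase that makes HMG-CoA, stood at 1056 and 2783 CPM at 24 months, at 2301 CPM at 5 months and at 227 CPM at 30 months, the lowest of the 4 libraries with no overlap. MVD, which makes isopentenyl diphosphate, stood at 68.6 and 113 CPM at 24 months and at 10.7 CPM at 30 months. FDPS, which makes farnesyl diphosphate, stood at 261 and 321 CPM and then at 31.5 CPM, the farthest below the pair in the list (3.05 on the log2 scale). At 5 months FDPS stood at 668 CPM, above both 24-month libraries. FDFT1, the squalene synthase, stood at 122 and 960 CPM and then at 33.5 CPM.

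The enzymes that build and trim the sterol ring followed. LSS, which closes the ring to lanosterol, stood at 114.3 and 424 CPM at 24 months, at 268 CPM at 5 months and at 17.4 CPM at 30 months, with a fitted difference of −3.95 (SE 1.14, edgeR adjusted p = 0.0635). TM7SF2, a sterol reductase, stood at 125 and 212 CPM and then at 17.7 CPM. DHCR7, the reductase of a last step, stood at 221 and 1022 CPM at 24 months and at 66.7 CPM at 30 months. CYP51A1, the lanosterol demethylase, is not in the list and was looked up after the values were seen: it stood at 438 and 2614 CPM and then at 212 CPM, which also lay 2-fold below the pair.

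A few members stood apart from this order. HSD17B7, a ketoreductase of the same pathway, stood at 568 and 720 CPM at 24 months and at 1058 CPM at 30 months, the highest of its 4 libraries. A second squalene epoxidase gene, SQLE (ENSDARG00000063319), stood under 1 CPM in the other 3 libraries and at 13.4 CPM at 30 months, below the mean of 5 CPM asked for, whereas SQLE (ENSDARG00000079946) stood at 248 and 915 CPM and then at 64.6 CPM. Reads of such paralogues can be split in counting, so the single values are uncertain. Among genes of uptake, ldlrb, a receptor for low-density lipoprotein, stood at 132 and 444 CPM and then at 30.7 CPM. The regulators SREBF1 and srebf2 and the transporters NPC1 and NPC2 did not stand 2-fold outside the pair.

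**Figure D3:**
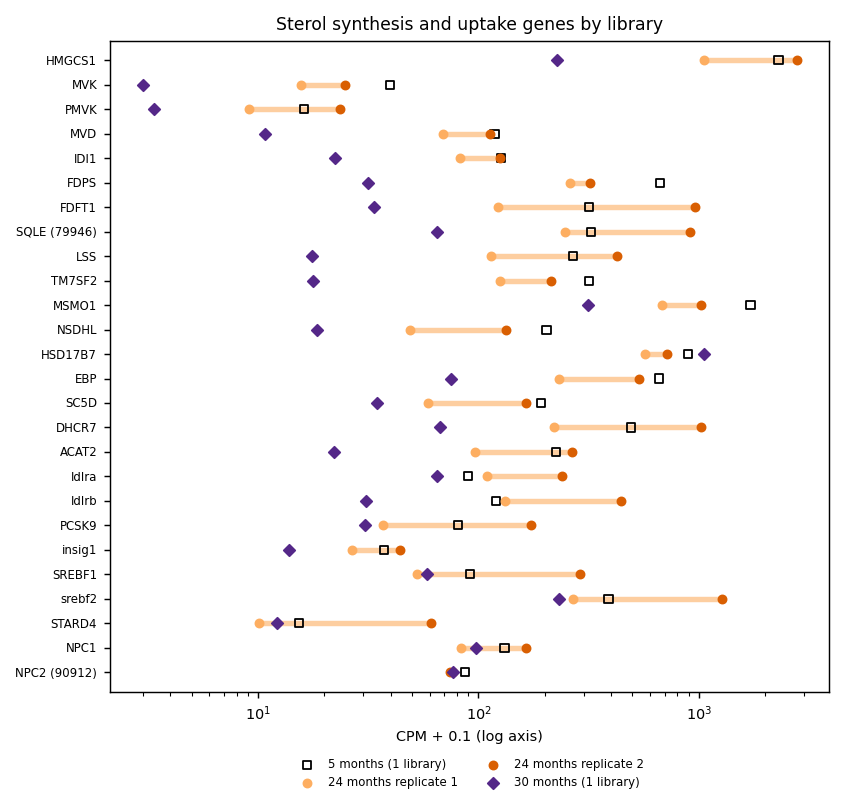
CPM in each library, on a log axis, for 26 of the 29 genes of sterol synthesis and uptake, in pathway order from HMGCS1 to DHCR7 and then ACAT2 and the genes of uptake and control; the bar joins the 24-month libraries, and numbers in brackets are the last digits of the Ensembl identifier. The 30-month library (diamonds) lies to the left of the bar by 2-fold or more for 16 of these genes, and to the right of it for HSD17B7.

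Fatty acid synthesis was mixed. FASN, the fatty acid synthase, stood at 180 and 537 CPM at 24 months and at 69.96 CPM at 30 months, and ACLY (ENSDARG00000099079), which supplies its acetyl-CoA from citrate, stood at 303 and 1743 CPM and then at 119 CPM. AACS, which makes acetoacetyl-CoA and was picked after its value was seen, stood at 74.5 and 224 CPM and then at 11.4 CPM. Enzymes of glyceride assembly stood on the other side: DGAT1 (ENSDARG00000103503) at 4.17 and 4.96 CPM and then at 25.3 CPM, GPAM at 11.5 and 10.6 CPM and then at 38.7 CPM, and LPIN1 at 39.4 and 30.9 CPM and then at 116 CPM. In all, 5 of 27 genes of fatty acid synthesis and adipocytes stood above the pair (18.5%) and 2 below (7.41%), beside 7.78% and 4.84% over all genes. Judged by the mean of the 24-month pair alone, 4 of 26 stood above and 2 below. DGAT1 (ENSDARG00000103503) passed the floor of 5 CPM only through the 30-month library.

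Genes of striated muscle formed the largest group on the higher side. Of 153 muscle genes, 104 stood 2-fold or more above both 24-month libraries and 2 below. The median difference was 1.93, with 1.61 against replicate 1 and 2.16 against replicate 2. edgeR called 13 of them higher, of the 28 calls in all. Judged by the mean of the 24-month pair alone, 90 of 136 stood above. Against the range of all 3 other libraries 61 stood above, as the 5-month library also held much muscle RNA. By role, the counts were 30 of 40 genes of the thin filament, 27 of 45 of the thick filament, 24 of 35 of calcium handling and 23 of 33 of muscle energy supply.

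Several of the genes farthest above the pair stood at low levels at 24 months. The troponin gene tnnc2.1, of the calcium switch on the thin filament, stood at 12.1 and 2.38 CPM at 24 months, at 17.1 CPM at 5 months and at 135 CPM at 30 months, and rose by 4.21 on the log2 scale (SE 0.90, edgeR adjusted p = 0.00194). The myosin heavy chain gene myh7bb stood at 11.3 and 2.90 CPM, at 22.4 CPM and at 105.02 CPM in the same order (edgeR adjusted p = 0.00844). MYBPC1, the myosin-binding protein known from slow fibres, stood at 36.4 and 34.3 CPM and then at 364 CPM, and rose by 3.36 (SE 0.85, edgeR adjusted p = 0.0196). Its 24-month values lay close together, and the 30-month library lay 3.32 above the higher of them. The slow myosin gene smyhc2 stood at 1005 and 281 CPM at 24 months, at 125 CPM at 5 months and at 4008 CPM at 30 months.

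Of the 35 genes of calcium handling, 24 stood above and 2 below. RYR1 (ENSDARG00000011422), the calcium release channel, stood at 49.3 and 40.01 CPM at 24 months, at 70.6 CPM at 5 months and at 324 CPM at 30 months. The calcium pump atp2a2a stood at 902 and 919 CPM, at 817 CPM and at 5383 CPM in the same order, so that only the 30-month library stood apart. Among enzymes of glycogen and sugar breakdown, PFKM (ENSDARG00000014179), the muscle phosphofructokinase, stood at 19.4 and 14.3 CPM and then at 139 CPM, and rose by 3.04 (SE 0.84, edgeR adjusted p = 0.0466). PYGM (ENSDARG00000055518), the muscle glycogen phosphorylase, stood at 76.2 and 62.6 CPM and then at 528 CPM (edgeR adjusted p = 0.11).

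Several of the most abundant muscle genes did not stand above the pair. The actin gene actc1b stood at 6785 and 5361 CPM at 24 months and at 6998 CPM at 30 months, and was highest at 5 months, at 15914 CPM. The fast myosin gene myhc4 stood at 4599 and 1459 CPM, then at 1362 CPM, with 10854 CPM at 5 months. The parvalbumin gene pvalb2, a calcium buffer of fast fibres, stood at 626 and 168 CPM and then at 79.4 CPM, which is 2-fold below the pair, with 4630 CPM at 5 months. The muscle genes thus did not keep 1 order across these libraries. The second gene below the pair was ATP2A2, another calcium reuptake pump, at 171 and 349 CPM and then at 77.8 CPM.

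**Figure D4:**
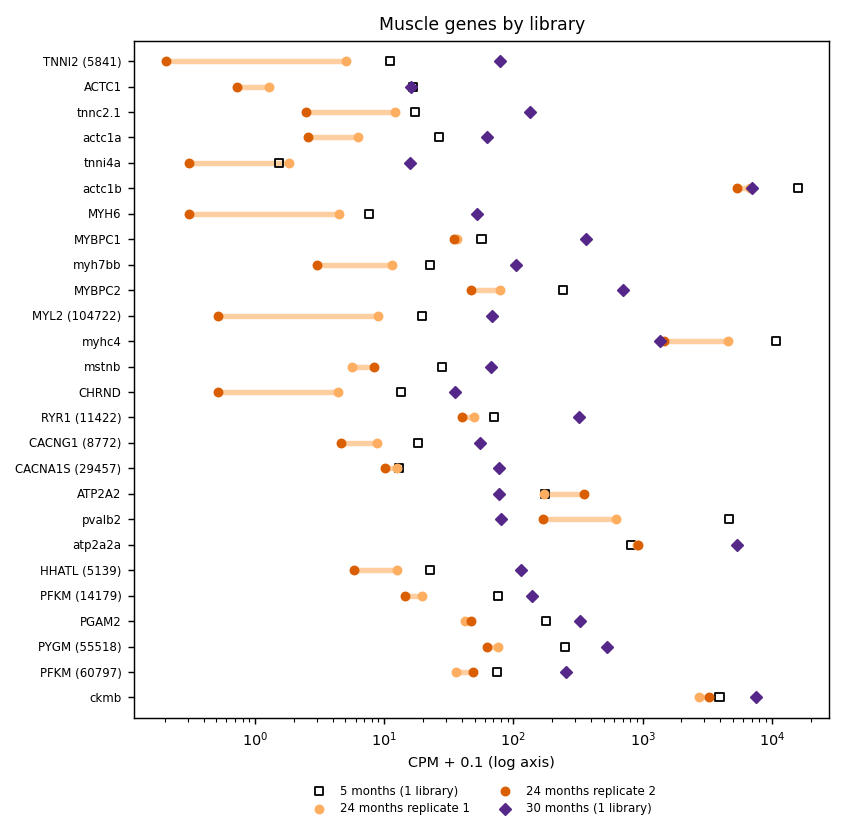
CPM in each library, on a log axis, for up to 5 genes above and 5 below the pair and the most abundant gene in each of 4 muscle lists (thin filament at the top, then thick filament, calcium handling and energy supply); the bar joins the 24-month libraries. Most genes shown were chosen as the farthest above the pair, so for them the 30-month library (diamonds) lies right of the bar by choice. It lies at the bar or to its left for actc1b, myhc4, ATP2A2 and pvalb2.

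Genes of muscle turnover stood above the pair in 22 of 78 cases (28.2%, beside 7.78% over all genes), with 1 below (median difference 0.58). Judged by the mean of the 24-month pair alone, 15 of 67 stood above. The list joins muscle atrophy genes with kelch and related adaptors of ubiquitin ligases. The kelch gene klhl33 stood at 0.782 and 1.03 CPM at 24 months, at 0.192 CPM at 5 months and at 19.7 CPM at 30 months. It passed the floor of 5 CPM only through the 30-month library. The ubiquitin ligase trim63a, known from muscle wasting, stood at 5.08 and 6.41 CPM and then at 37.5 CPM, and mstnb, a myostatin that restrains muscle growth, at 5.56 and 8.17 CPM and then at 67.3 CPM. None of the 78 passed edgeR's test after adjustment.

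All 13 mitochondrially encoded transcripts stood 2-fold or more above both 24-month libraries, the only list with every member on 1 side; with library totals alone 9 of the 13 did. These genes encode core subunits of respiratory chain complexes I, III and IV and of the ATP synthase. Together they took 6.45% and 1.27% of the counts at 24 months, 5.23% at 5 months and 12.9% at 30 months. MT-CO1, of cytochrome c oxidase, stood at 21489 and 4940 CPM at 24 months, at 15233 CPM at 5 months and at 49743 CPM at 30 months. The distance above the higher replicate ran from 1.10 for MT-ND1 to 1.62 for mt-atp8 on the log2 scale. The median difference was 1.38 against replicate 1 and 3.26 against replicate 2, so the size depends on which replicate is taken. Against all 3 other libraries 11 of the 13 stood 2-fold above, and none passed edgeR's test.

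Nuclear genes of oxidative phosphorylation were shifted the same way by less. Of 95 genes, 29 stood 2-fold above the pair (30.5%, beside 7.78% over all genes) and 0 below. With library totals alone 16 stood above, and without replicate 2 53 did, beside 765 and 1816 of all 12883 genes. By TMM scaling 78 were higher than both replicates at any distance, beside 4050 of all 12883 genes, and the median difference was 0.98. By complex the counts were 12 of 38 for complex I, 0 of 4 for complex II, 2 of 10 for complex III with cytochrome c, 7 of 18 for complex IV and 7 of 20 for the ATP synthase. With the 5-month library added to the pair, 17 of the 29 still stood 2-fold above. These were 4 of complex I, 1 of complex III with cytochrome c, all 7 of complex IV and 5 of the ATP synthase. The subunit gene cox8b, known from heart and muscle in mammals, stood at 26.9 and 18.7 CPM at 24 months, at 44.4 CPM at 5 months and at 123.5 CPM at 30 months, and cox7a1, likewise a muscle isoform, stood at 26.2 and 39.5 CPM, at 22.5 CPM and at 144.7 CPM. The beta subunit ATP5F1B, the most abundant of the list, stood at 905 and 1694 CPM and then at 2691 CPM, less than 2-fold above.

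Fatty acid oxidation feeds the same chain. Of its 62 genes, 18 stood above the pair (29.0%, beside 7.78% over all genes) and 0 below, with a median difference of 0.78. Without replicate 2, 29 stood above, beside 1816 of all 12883 genes. The gene cpt1ab, of the transferase that admits long-chain fatty acids to mitochondria, stood at 18.8 and 11.2 CPM at 24 months, at 38.7 CPM at 5 months and at 135 CPM at 30 months, and rose by 3.17 (SE 0.85, edgeR adjusted p = 0.0363). HADH, of the third step of each oxidation cycle, stood at 35.2 and 31.0 CPM and then at 135 CPM. FABP3, a fatty acid carrier abundant in muscle, stood at 179 and 181 CPM and then at 485 CPM. Mitochondrial genes outside the lists, picked among the most abundant genes after their values were seen, included IDH2, an isocitrate dehydrogenase, at 722 and 629 CPM and then at 2407 CPM, and the ADP/ATP carrier SLC25A5, at 4119 and 5035 CPM and then at 10828 CPM. Muscle transcripts were higher in the same library, and their part in these values was not tested.

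Cell cycle genes were lower at 30 months. Of 97 genes, 34 stood 2-fold or more below both 24-month libraries (35.1%, beside 4.84% over all genes) and 0 above. All 34 also stood 2-fold or more below the 5-month library. The median difference was −1.44, with −2.25 against replicate 1 and −0.53 against replicate 2. The list took 0.402% and 0.128% of the counts at 24 months, 0.554% at 5 months and 0.0922% at 30 months. None of the 97 passed edgeR's test after adjustment. Germ cell transcripts were high at 5 months and in replicate 1, and their part in the cell cycle values was not tested. Against replicate 2 alone, where they took 0.00908% of the counts, 37 of the 97 genes stood 2-fold or more lower at 30 months, beside 2755 of all 12883 genes. Against replicate 1 alone 79 of the 97 did, beside 1522 of all 12883.

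Genes of DNA replication were among the 34. The helicase that unwinds DNA at the replication fork is built from the MCM proteins, and 5 of their 6 genes stood below. MCM4 stood at 55.8 and 49.3 CPM at 24 months, at 116 CPM at 5 months and at 12.6 CPM at 30 months. POLD1, of DNA polymerase delta, stood at 56.4 and 45.4 CPM and then at 12.5 CPM, and DNMT1, which copies DNA methylation after replication, at 48.1 and 46.2 CPM and then at 19.6 CPM. These 3 genes were picked among the 34 after their values were seen, and their 24-month values lay close together.

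Genes of mitosis were also among the 34. RACGAP1, needed for cell division at the midzone, stood at 33.1 and 16.4 CPM at 24 months, at 62.9 CPM at 5 months and at 1.47 CPM at 30 months, with a fitted difference of −4.07 (SE 1.22, edgeR adjusted p = 0.0959). The checkpoint kinase bub1 stood at 33.97 and 25.02 CPM, at 59.1 CPM and at 3.57 CPM in the same order. The centromere motor cenpe stood at 78.7 and 34.8 CPM, at 133 CPM and at 6.61 CPM. The mitotic kinase aurka stood at 23.2 and 3.93 CPM and then at 1.42 CPM, so that replicate 2 was already low. HMGB2, a chromatin protein and the most abundant of the list, stood at 173 and 112 CPM and then at 139 CPM, inside the pair.

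Genes of the motile cilium and of germ cells were much lower at 30 months than in replicate 1, whereas replicate 2 held too few counts of many of them for a comparison. The beating axoneme of sperm and ciliated cells is driven by dyneins. Of 81 cilium genes, 14 stood 2-fold below the pair (17.3%, beside 4.84% over all genes) and 0 above. All 14 stood below the 5-month library as well. The median difference was −5.02 against replicate 1. Against replicate 2 the median was 0.56, which is also the value of 1 count against none, and 30 of the 81 genes had at most 3 counts there. The other 51 had more, and the median count was 7 in replicate 2 and 21 at 30 months, before scaling for depth. The list took 0.451% and 0.140% of the counts at 24 months, 0.592% at 5 months and 0.0723% at 30 months, so by summed counts it was lowest at 30 months. The tubulin gene tubb4b held 12555 counts in replicate 2 and 8117 at 30 months, the larger part of both sums. Most of the distance between these sums thus comes from this gene, which was less than 2-fold below the pair. Without replicate 2, 74 of the 81 genes stood below, beside 1522 of all 12883 genes. The dynein gene dnah9 stood at 54.3 and 1.34 CPM at 24 months, at 107 CPM at 5 months and at 0.210 CPM at 30 months, and fell by 7.01 (SE 1.37, edgeR adjusted p = 0.000456). DNAH6 stood at 89.1 and 6.62 CPM, at 199.7 CPM and at 0.997 CPM. Replicate 2 had far less of both transcripts than replicate 1, and the 30-month library had less again.

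Of 34 germ cell genes 3 stood below the pair and 0 above. The 3 below the pair made up 8.82%, beside 4.84% over all genes. The median difference was −6.55 against replicate 1, and 31 of the 34 stood below without replicate 2. Against replicate 2 the median was again 0.56, which is also the value of 1 count against none. In replicate 2, 20 of the 34 genes had at most 3 counts, and the median count was 1.5, beside 9.5 at 30 months before scaling for depth. The list took 0.00908% of the counts of replicate 2 and 0.0149% of those at 30 months. SYCP1, of the synaptonemal complex of meiosis, stood at 227 and 1.24 CPM at 24 months, at 238 CPM at 5 months and at 11.97 CPM at 30 months, inside the pair. The gene topaz1, known from the testis of mammals, stood at 21.8 and 0.414 CPM and had no count at 30 months. With 3 counts taken as the limit, it was at least 138-fold lower than replicate 1. Replicate 2 had only 4 counts, too few for a bound on the fold. YTHDC2, an RNA helicase of the switch to meiosis, stood at 12.1 and 10.6 CPM and then at 2.68 CPM. It is the 1 member of these 3 in which the 24-month libraries were alike.

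**Figure D5:**
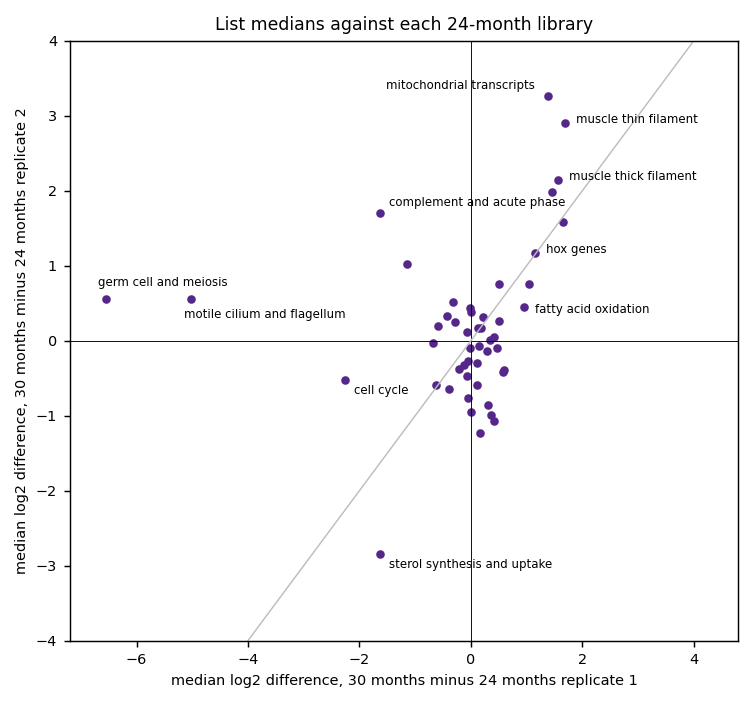
Each point is 1 gene list, with its median log2 difference of 30 months from replicate 1 of 24 months on the x axis and from replicate 2 on the y axis; the grey line marks equal differences. Germ cell and cilium lists lie at −6.55 and −5.02 on the x axis and at 0.56 on the y axis, which is also the value of 1 count against none. Many of their genes had few counts in replicate 2, so the y value of these lists is uncertain. Sterol genes are lower and muscle, mitochondrial and hox genes higher against both.

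Of 13 hox genes, 7 stood 2-fold above the pair (53.8%, beside 7.78% over all genes) and 0 below. The median difference was 1.37, with 1.16 against replicate 1 and 1.17 against replicate 2. Hox genes keep a record of position along the body axis in adult tissue, and posterior groups carry high numbers. HOXC10 stood at 5.39 and 1.34 CPM at 24 months, at 7.01 CPM at 5 months and at 24.4 CPM at 30 months. HOXC11 stood at 3.56 and 3.83 CPM, at 4.99 CPM and at 18.002 CPM in the same order. HOXA3, of an anterior group, stood at 10.4 and 8.69 CPM, at 16.5 CPM and at 25.6 CPM, so the genes above were not all posterior. HOXB9 stood inside the pair, at 18.9 and 33.2 CPM and then at 29.7 CPM. Several members passed the floor of 5 CPM through the 30-month library: judged by the pair alone, 4 of 9 stood above. None passed edgeR's test, and the body site of each sample is not given in the labels.

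In the epidermis, structural genes moved less. Of 73 genes of junctions and barrier 8 stood below the pair and 0 above (10.96%, beside 4.84% over all genes). Of 43 genes of the basement membrane and anchoring 3 stood below (6.98%) and 4 above (9.30%, beside 7.78% over all genes). The laminin gene lamb3, a subunit of the laminin that anchors basal keratinocytes, stood at 715 and 2374 CPM at 24 months, at 130.4 CPM at 5 months and at 267 CPM at 30 months. The hemidesmosome collagen gene col17a1b stood at 1251 and 2738 CPM, at 371 CPM and at 508 CPM. DSP (ENSDARG00000022309), a desmoplakin gene of desmosomes, stood at 2333 and 3989 CPM and then at 973 CPM, with 738 CPM at 5 months. In lamb3, col17a1b and this DSP gene the 24-month pair was the high group and the 30-month value lay nearer to that of 5 months. Another desmoplakin gene, DSP (ENSDARG00000076673), stood at 465 and 671 CPM and then at 661 CPM, inside the pair. The reporter line and its age cannot be told apart here. ITGB4, the integrin of the same anchoring structure, stood at 2611 and 5899 CPM and then at 1542 CPM, less than 2-fold below.

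Dermal matrix genes were near the level of all genes, with 9 of 80 above (11.25%, beside 7.78%) and 3 below (3.75%, beside 4.84%). COL1A1, of the main dermal collagen, stood at 1728 and 25099 CPM at 24 months and at 2789 CPM at 30 months, inside a very wide pair. TNC (ENSDARG00000078362), the matrix protein tenascin C, stood at 12.03 and 26.1 CPM and then at 67.1 CPM. THBS1 (ENSDARG00000010785), thrombospondin, stood at 458 and 907 CPM and then at 158 CPM, near the 126 CPM of 5 months. In scale and bone genes 3 of 33 stood below (9.09%, beside 4.84% over all genes) and 0 above. Among the 3 was enam, which encodes the matrix protein enamelin in mammals. It stood at 27.6 and 334 CPM at 24 months, at 203 CPM at 5 months and at 4.46 CPM at 30 months.

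Of 35 ionocyte genes 2 stood above and 4 below (11.4%, beside 4.84% over all genes). The carbonic anhydrase gene ca2, of acid transport, stood at 28.5 and 49.2 CPM at 24 months and at 7.77 CPM at 30 months, and ATP1B1 (ENSDARG00000076833), a subunit of the sodium pump, stood at 2.30 and 2.07 CPM and then at 34.6 CPM. This ATP1B1 gene passed the floor of 5 CPM only through the 30-month library. Judged by the mean of the 24-month pair alone, 1 of 33 ionocyte genes stood above and 4 below. Another gene of that symbol, ATP1B1 (ENSDARG00000013144), stood at 489 and 401 CPM and then at 581 CPM, less than 2-fold above. Of 27 genes of mucous and secretory cells 1 stood above and 2 below (7.41%). The mucin gene muc5.2 stood at 293 and 123.8 CPM and then at 646 CPM, near the 622 CPM of 5 months. The galectin gene lgals4 stood at 739 and 738 CPM at 24 months, at 547 CPM at 5 months and at 2.89 CPM at 30 months, and fell by 7.997 (SE 1.61, edgeR adjusted p = 0.000843). The other 3 libraries had this transcript at similar levels. Of 20 xanthophore genes 1 stood above (5%) and 2 below (10%), beside 7.78% and 4.84% over all genes. Below stood gch2, of pteridine synthesis, at 19.3 and 42.7 CPM and then at 8.97 CPM. The other below was BCO2 (ENSDARG00000041715), a carotenoid oxygenase, at 37.0 and 21.8 CPM and then at 3.73 CPM. Another gene of that symbol, BCO2 (ENSDARG00000055722), stood above the pair, at 15.5 and 10.03 CPM and then at 43.7 CPM.

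Immune lists held from 0 to 5 genes on each side, beside shares of 7.78% above and 4.84% below over all genes. The counts above and below were 1 and 0 of 40 macrophage genes, 1 and 1 of 21 neutrophil genes, 1 and 0 of 22 genes of T and NK cells, 3 and 2 of 24 B cell genes (12.5% and 8.33%), 3 and 2 of 41 genes of antigen presentation, 2 and 1 of 72 genes of the interferon response and 5 and 1 of 58 genes of inflammation (8.62% and 1.72%). Some members passed the floor of 5 CPM only through the 30-month library. Judged by the mean of the 24-month pair alone, 1 of 21 B cell genes and 2 of 52 genes of inflammation stood above. The perforin gene prf1.6, of the pore that killer cells release, stood at 29.4 and 18.9 CPM at 24 months, at 42.4 CPM at 5 months and at 200.01 CPM at 30 months (edgeR adjusted p = 0.0426). SAMHD1, which limits viral DNA synthesis by degrading nucleotides, stood at 50.1 and 268 CPM, at 61.9 CPM and at 2.78 CPM, and fell by 5.83 (SE 1.19, edgeR adjusted p = 0.000885). The class I gene mhc1uba stood at 13.2 and 368 CPM at 24 months, at 5.90 CPM at 5 months and at 1318 CPM at 30 months. Reads of near-identical class I genes can be split in counting, so this value is uncertain.

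Stress genes stood on both sides. Of 83 heat shock and chaperone genes 6 stood above (7.23%) and 9 below (10.8%), beside 7.78% and 4.84% over all genes. HSPB7 and HSPB1, small heat shock proteins of which the first is known from heart and muscle, stood at 52.7 and 150.4 CPM at 30 months, against at most 5.08 and 37.8 CPM at 24 months. HSPB7 passed the floor of 5 CPM only through the 30-month library. By the mean of the 24-month pair alone, 5 of 80 genes of the list stood above and 9 below. HSPA4 (ENSDARG00000004754), a partner of HSP70, stood at 127 and 175 CPM and then at 24.1 CPM, and HSP90AA1 at 98.1 and 78.1 CPM and then at 20.2 CPM. Its paralogue hsp90aa1.1 stood on the other side, at 23.5 and 20.2 CPM at 24 months and at 98.9 CPM at 30 months. Of 107 genes of antioxidant defence and detoxification 13 stood above (12.1%) and 8 below (7.48%). Judged by the mean of the 24-month pair alone, 7 of 100 stood above and 8 below. TXNIP (ENSDARG00000070000), which binds thioredoxin, stood at 18.8 and 8.27 CPM, at 36.04 CPM at 5 months and at 122 CPM at 30 months (edgeR adjusted p = 0.0394), and GSS, of glutathione synthesis, at 10.99 and 28.1 CPM and then at 1.10 CPM. Of 54 proteasome genes 38 were lower than both replicates, beside 4203 of all 12883 genes, but by less than 2-fold in all cases except 1. The flow-sensitive factor klf2a stood at 288 and 337 CPM and then at 1586 CPM.

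Among genes with a symbol that is not a clone name, the farthest above the pair was cdh31, a cadherin, at 0.912 and 0.931 CPM at 24 months, at 4.89 CPM at 5 months and at 29.0 CPM at 30 months, and it rose by 4.97 (SE 1.37, edgeR adjusted p = 0.0444). Farthest below among them was fabp1b.2, a fatty acid binding protein of the liver type, at 162 and 166 CPM, at 26.3 CPM and at 0.210 CPM, where it rests on 4 counts, and it fell by 9.57 (SE 1.46, edgeR adjusted p = 3.71e-07). SLC1A1, a glutamate transporter, stood at 11.1 and 22.02 CPM with no count at 30 months, at least 70.3-fold lower than replicate 1 and at least 140-fold lower than replicate 2, with 3 counts as the limit. The protease inhibitor serpina10a stood at 49.8 and 10.4 CPM and had 2 counts at 30 months, a ratio of 474 to replicate 1 (exact 95% counting interval 131 to 3921) and of 99.5 to replicate 2 (26.8 to 833). HAL, the histidine ammonia-lyase known from the upper epidermis of mammals, stood at 7.34 and 9.20 CPM and also had 2 counts, a ratio of 69.9 to replicate 1 (19.1 to 582) and of 87.7 to replicate 2 (23.6 to 735). The gene cdh31 passed the floor of 5 CPM only through the 30-month library. In SLC1A1, fabp1b.2 and HAL both 24-month libraries and the 5-month library had the transcript, and the 30-month library alone lacked nearly all of it. These intervals cover counting error only.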

How the data were processed

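Skin RNA of male zebrafish was measured in 4 libraries, grouped by the age in the labels; replicate numbers were given in accession order. The deposited counts are whole reads per Ensembl gene, and per the submitters' processing notes the tools were STAR 2.4.1d, featureCounts 1.4.6-p4 and CASAVA 1.7, with GRCz10 as genome build. For strand setting and annotation release the entry is: not given in the sources used here. Thus antisense, overlapping and near-identical genes are uncertain. A second table, named for RPKM, was not used, as no single factor per library links it to the counts. Symbols, often in human style, matched 26269 of 32105 genes.

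Genes were filtered with filterByExpr, scaled by TMM and tested with edgeR 4.0.16 (R 4.3.3, glmQLFTest, groups of age as model, Benjamini-Hochberg adjustment). The same fit was run on simulated counts with the same spread for all genes, which gives no error rate for these data. The range rule used log2 CPM with a prior count of 2. DESeq2 1.42.0 and limma 3.58.1 served as alternatives. Totals ranged from 11833498 to 20441260 counts. The edgeR p-values rest on a trend across genes in the spread between the 24-month samples, which may be technical. Neither they nor the SE worked back from the same test measure each gene's own spread. Intervals cover counting error only.

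The comparison, the rule for named genes and the 50 lists were chosen with earlier results of these data known. Named genes are the 12 farthest above and below the pair among genes with a symbol that is not a clone name, the 15 each way among genes whose pair differed by under 0.5 on the log2 scale, and up to 5 each way with the most abundant gene of each list. Further list members and abundant genes were named after their values were seen. Some genes of the lists are counted but not reported singly here.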

Additional observations from a re-analysis of the deposited data

How the results depend on the processing

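With 1 replicate of 24 months left out, the genes 2-fold above numbered from 1816 to 2710 and those below from 1522 to 2755, since a range of 1 library is narrower. With a mean of at least 1 CPM 1635 stood above, with at least 20 CPM 470 above and 292 below, and with no filter 2601 and 1114. At 4-fold the counts were 207 and 95, and against the pair and the 5-month library together 538 and 411. With the mean taken over the 24-month pair alone, an alternative chosen after seeing the data, 706 stood above and 714 below, and 4 hox genes stood above. With library totals alone 16 nuclear genes of oxidative phosphorylation stood above, and the hox median was 1.32, with 1.31 under DESeq2 size factors and 1.30 under a prior count of 10, which left 1 germ cell gene below. Without 1 replicate, the counts ran from 42 to 53 for oxidative phosphorylation (medians 0.76 to 1.04), 24 to 29 for fatty acid oxidation, 37 to 79 for the cell cycle, 16 to 74 for the cilium and 3 to 31 for germ cells, and the hox median from 1.16 to 1.17. The medians of cilium and germ cell genes, −1.73 and −2.72 against the pair, were 0.56 in both lists without replicate 1 and −5.02 and −6.55 without replicate 2. The change of sign is uncertain, as 1 count against none also gives 0.56. In replicate 2, 30 of 81 cilium genes and 20 of 34 germ cell genes had at most 3 counts.

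The edgeR calls, 28 higher and 119 lower, became 1 and 1 with library totals alone, 1 and 1 with a floor of 5 CPM, 1 and 0 with the newer dispersion setting (937 genes with an unadjusted p under 0.05), 15 and 59 with DESeq2 and 4 and 3 with limma-voom; the cause was not tested. Under both other scalings and a prior count of 10, 621 of 687 values of 229 named genes moved by less than the spread between the replicates. No paired analysis was possible because the labels give no replicate numbers and the age of 30 months has 1 library. Depth limits genes near 0 most in replicate 2, where 3 counts are 0.310 CPM.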

Other observations

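Paralogous enzymes of glycolysis stood on opposite sides. The genes known from muscle, PFKM (ENSDARG00000060797) at 36.1 and 48.9 CPM at 24 months and 257 CPM at 30 months and PGAM2 at 42.0 and 46.8 CPM and then 325 CPM, stood above the pair. PFKP (ENSDARG00000028000), a phosphofructokinase, at 38.3 and 68.1 CPM and then 16.2 CPM, and pgam1a, a phosphoglycerate mutase, at 50.5 and 61.7 CPM and then 22.3 CPM, stood below it. HK2, a hexokinase with no paralogue named here, also stood below the pair, at 129 and 185 CPM and then 45.7 CPM. The list of glycolysis and hypoxia outside muscle held 4 genes above and 4 below of 29 (13.8% each, beside 7.78% and 4.84% over all genes).

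Growth signalling genes stood above the pair in 6 of 45 cases (13.3%, beside 7.78% over all genes) and below in 0. The growth hormone receptor gene ghrb stood at 20.02 and 10.03 CPM at 24 months and at 69.1 CPM at 30 months, and IGFBP3, which binds insulin-like growth factors, at 21.9 and 27.1 CPM and then at 71.4 CPM. In the circadian clock 4 of 44 genes stood above (9.09%) and 2 below (4.55%), near the 7.78% and 4.84% over all genes: rorca, a nuclear receptor, at 3.30 and 3.31 CPM and then at 16.1 CPM, and cry5, a photolyase relative, at 38.8 and 107 CPM and then at 15.3 CPM, with 5.28 CPM at 5 months. Judged by the mean of the 24-month pair alone, 5 of 44 growth signalling genes and 2 of 41 clock genes stood above. The hour of sampling is not in the labels.

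One gene with a clone-style name, wu:fk65c09, chosen after its values were seen, stood at 396 and 1887 CPM at 24 months, at 228 CPM at 5 months and at 0.945 CPM at 30 months, 8.55 below the lower replicate on the log2 scale (edgeR adjusted p = 0.000102). Another, si:dkeyp-1h4.9, stood at 0.999 and 0.414 CPM, at 0.816 CPM and at 285 CPM in the same order, 8.01 above the higher replicate. It passed the floor of 5 CPM only through the 30-month library. The sources used here give neither gene a role.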
